A study of Rattus norvegicus with 65 samples.

Results

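The pseudouridine synthases described here are the 10 rat genes Pus1, Pus3, Pusl1, Trub1, Trub2, Rpusd1, Rpusd2, Pus7, Pus7l and Pus10, enzymes chosen because fluorouracil built into RNA can trap them. They were listed by name, with earlier results of these data known, and all 10 have a row among the 14554 genes of the table. Transcripts were measured by polyA RNA sequencing in primary neonatal rat cardiomyocytes, serum starved overnight before treatment. Cells from several litters were pooled ahead of plating. Libraries of 1 group are thus wells of the same pooled preparation, and p-values measure the spread between wells and not between animals. The 65 libraries form 10 groups of 6 or 7, namely 5-fluorouracil (5FU, 10 mM) with its control DMSO1 (1% DMSO), and acetaminophen (Ace, 2.5 mM) and doxorubicin (Dox, 1.25 uM) with their shared control DMSO2 (0.25% DMSO), each for 6 or 24 hours. The controls therefore also carry DMSO, and the Ace and Dox comparisons at a time point use the same DMSO2 libraries.

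Pseudouridine is uridine whose base has been detached, turned and joined again to the sugar through a carbon atom. It is the most abundant modified base of RNA and is found in tRNA, rRNA, small nuclear RNA and mRNA. The enzymes described here recognise their targets without a guide RNA, while rRNA and small nuclear RNA are mostly modified by the H/ACA particle, in which the synthase Dkc1 is directed by a guide RNA. When the uridine is replaced by 5-fluorouridine, which cells make from 5FU, the enzyme can stay bound to the fluorinated base. Binding of this kind concerns the protein, and the data here count transcripts only.

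RefSeq (rat assembly GRCr8) gives the sequence before a start site for 9 of the 10 genes in 13 windows, 5 of them for Pus7l; Trub2 has no entry. In 5 genes, some of the 250 bases before the start lie outside every annotated gene, and these stretches are shown. Each of these 5 genes rose in at least 1 drug comparison below, as did Pus1, Pus3, Trub1 and Trub2. The stretches stop 14 (Pusl1), 70 (Rpusd1) and 130 (Pus7) bases short of the start, while those of Rpusd2 and Pus10 reach it. They are written on the strand of the gene, 5′ to 3′, and capitals mark matches, on either strand, to the E-box (CACGTG), the ETS site (CCGGAAG), the GC box (GGGCGG), the CCAAT box (CCAAT) or the cyclic AMP response element (TGACGTCA). The stretches are chr5:171782894-171783129 (minus strand) for Pusl1, chr3:126471370-126471619 (plus) for Rpusd2, chr10:15255626-15255805 (plus) for Rpusd1, chr4:12252433-12252552 (plus) for Pus7 and chr14:101822368-101822524 (plus) for Pus10.
Pusl1: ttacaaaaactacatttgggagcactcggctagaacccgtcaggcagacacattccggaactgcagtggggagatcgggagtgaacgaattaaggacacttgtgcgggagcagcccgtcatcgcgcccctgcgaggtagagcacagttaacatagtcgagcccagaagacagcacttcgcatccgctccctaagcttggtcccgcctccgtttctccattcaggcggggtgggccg
Rpusd2: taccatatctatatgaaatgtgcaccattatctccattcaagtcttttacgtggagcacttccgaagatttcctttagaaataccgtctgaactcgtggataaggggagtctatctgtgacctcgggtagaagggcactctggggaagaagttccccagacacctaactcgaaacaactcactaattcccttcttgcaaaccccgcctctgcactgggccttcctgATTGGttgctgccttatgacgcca
Rpusd1: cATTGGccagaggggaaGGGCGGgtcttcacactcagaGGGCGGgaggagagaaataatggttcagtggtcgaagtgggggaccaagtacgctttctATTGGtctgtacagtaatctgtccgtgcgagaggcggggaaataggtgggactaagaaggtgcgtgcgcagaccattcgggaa
Pus7: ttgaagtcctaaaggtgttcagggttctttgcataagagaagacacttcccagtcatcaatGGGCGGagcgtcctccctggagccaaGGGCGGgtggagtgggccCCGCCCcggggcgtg
Pus10: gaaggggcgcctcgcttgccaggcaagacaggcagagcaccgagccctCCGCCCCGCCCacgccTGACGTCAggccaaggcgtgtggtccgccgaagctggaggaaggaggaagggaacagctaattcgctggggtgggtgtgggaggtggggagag

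Over the full 250 bases, the GC box lay in 6 of the 13 windows, in Pus10, Pus7, Pus7l, Rpusd1 and Trub1, against 30.5% of all 33469 RefSeq windows of this length. The CCAAT box lay in 3 windows, those of Rpusd1, Rpusd2 and Trub1, against 34% of all windows. The cyclic AMP response element was present in Pus10 alone (1.59% of all windows), the E-box in Pus7 alone (5.59%) and the ETS site in Pus7l alone (7.27%). The printed Pus10 stretch is 68.2% G and C with 11 CpG dinucleotides, and the Rpusd2 stretch is 47.6% G and C with 8. A match says only that these letters are present. No motif is common to the 5 printed stretches: Pusl1 holds none of them, while Rpusd1 holds 2 GC boxes and 2 CCAAT boxes.

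Library totals ran from 14332827 to 25738297 estimated counts with a median of 19219714. No pair of libraries within a group agreed within sampling noise over genes, so none looked like a second sequencing of another. This check speaks to repeated sequencing only, and each library is counted as 1 sample. Levels below are CPM, the counts scaled to the TMM-adjusted size of each library, and can be set against each other within a gene only, since transcript lengths were not used. Estimated counts of the members ran from 7 (Rpusd2 in 1 Ace 24-hour library) to 1326 (Pus10 in 1 Dox 24-hour library). Cardiomyocyte transcripts were high in every library: Tnnt2, cardiac troponin T, stood at 5312.99 to 9393.95 CPM and Myh6, the alpha myosin heavy chain, at 896 to 26634 CPM. The cultures were not pure, and markers of other cells moved with the drugs. Of 8 fibroblast markers, 8 were lower at 24 hours of 5FU, of Ace and of Dox, and 7 were lower in DMSO1 than in DMSO2 at 6 hours. At 24 hours of Dox, 8 of 8 endothelial markers with a row and 10 of 10 macrophage markers were also lower, as were 7 of 10 cardiomyocyte markers, and 3 of 4 smooth muscle markers were higher. In bulk RNA, fewer cells of a type and less RNA per cell cannot be told apart.

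Across the 6 comparisons of a drug with its own control, 26 of the 60 member-comparison pairs passed an FDR below 0.01 (edgeR quasi-likelihood test, Benjamini-Hochberg adjustment over all 14554 genes), 16 of them higher and 10 lower. Most members passed at 24 hours of Dox, where 5 members rose and 3 fell. Rpusd2, Pus1 and Pus10 rose more than 2-fold and Trub2 fell to less than 0.4 of its control level, while Rpusd1 and Pusl1 did not pass. Under 5FU the members that rose were Rpusd2 and Trub2 at both times and Pusl1 at 24 hours. Under Ace they were Pus7 and Rpusd1 at both times and Pus3 at 6 hours. Over the 6 comparisons every member passed in at least 2 and Trub2 in 4, and changes of at least 1 on the log2 scale were found in 5 pairs. Rpusd2, Pus7, Pusl1 and Rpusd1 were called higher and never lower, and Pus7l lower and never higher. Of all genes, 31.7% (Ace at 6 hours) to 81.4% (Dox at 24 hours) passed in a single comparison. Passes over several comparisons were not counted for all genes, so these counts are not read as particular to the members.

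**Figure D1:**
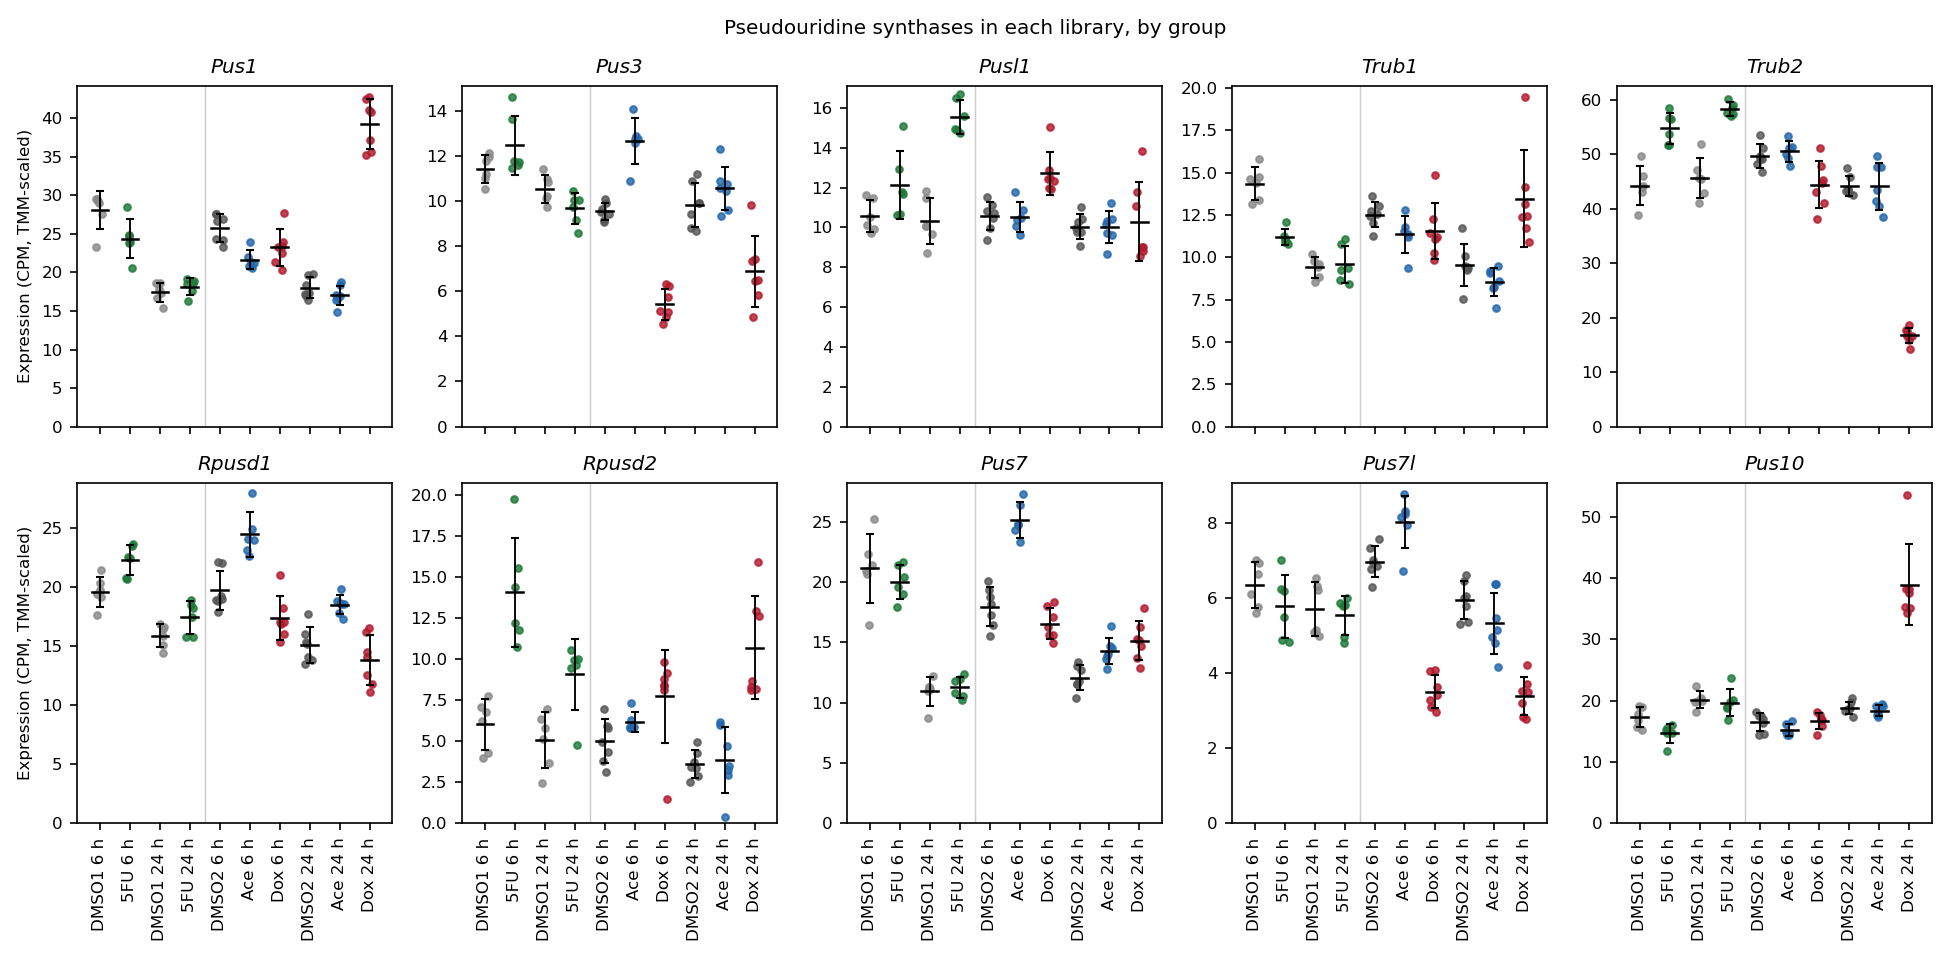
Level of each pseudouridine synthase (y axis, CPM after TMM scaling, from 0) in each of the 65 libraries (points) by group (x axis), with the group mean (wide line) and SD (bars). The Dox 24-hour points stand clear of every other group for Pus1 and Pus10 (above) and for Trub2 (below).

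The members' counts are set beside those of the whole table. At 6 hours of 5FU, 2 members rose and 3 fell, where 23.4% of all genes rose and 24.5% fell. After 24 hours of 5FU, 3 rose and 0 fell, against 28% and 27.8% of all genes. After 6 hours of Ace, 3 rose and 1 fell, against 16.5% and 15.2%. At 24 hours of Ace, 2 rose and 0 fell, against 18.2% and 19.1%. At 6 hours of Dox, 1 rose and 3 fell, against 31.5% and 32.7%. At 24 hours of Dox, 5 rose and 3 fell, against 40.4% and 41%. With 10 genes, 1 gene more or less moves a share by 10 points, so no list-wide shift is read from these shares. The median log2 fold change of the members was 0.18 at 24 hours of Dox (0.0028 over all genes), 0.054 at 24 hours of 5FU (-0.0094) and -0.0030 at 24 hours of Ace (-0.00082). The 6-hour medians were -0.13 under Dox (0.0030 over all genes), 0.023 under 5FU (-0.0016) and 0.12 under Ace (0.0023). Without sign, the median change at 24 hours was 0.093 under 5FU (0.35 over all genes), 0.11 under Ace (0.20) and 0.66 under Dox (0.77). At 6 hours it was 0.20 under 5FU (0.29), 0.23 under Ace (0.19) and 0.17 under Dox (0.39).

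**Figure D2:**
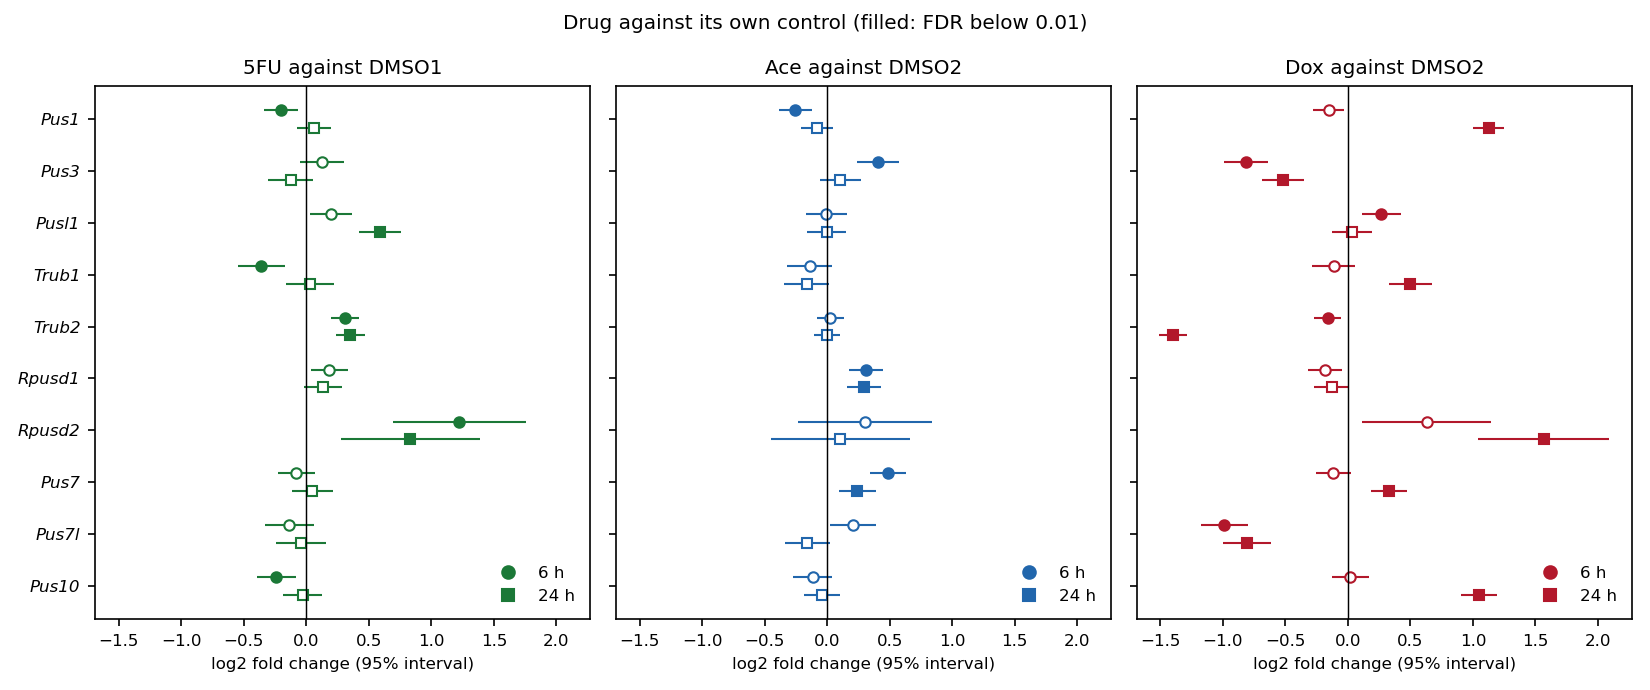
log2 fold change of each pseudouridine synthase (x axis, with its 95% interval) for 5FU against DMSO1, Ace against DMSO2 and Dox against DMSO2 at 6 hours (circles) and 24 hours (squares). Filled symbols passed an FDR below 0.01: Trub2 at 24 hours of Dox lies farthest left at -1.40 and Rpusd2 farthest right at 1.57.

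Pus1, Pus3 and Pusl1 belong to the TruA family. Pus1 modifies tRNAs of the cytoplasm and of mitochondria as well as mRNAs, and its loss in humans causes a myopathy with sideroblastic anaemia. Pus1 stood at 35.2, 40.8 and 42.8 CPM (lowest, median and highest) in the 7 Dox 24-hour libraries and at 16.4, 17.4 and 19.8 CPM in the 7 DMSO2 24-hour libraries. No Dox library overlapped its control, and the change was 2.18-fold (log2 1.12, SE 0.062, FDR 1.7e-25). In the Dox 6-hour group the level was 20.3 to 27.8 CPM with a median of 23.3, against 23.3 to 27.6 CPM with a median of 26.6 in DMSO2, a log2 difference of -0.15 that did not pass (FDR 0.0255) but did on leaving out Dox 6 h library 4 (-0.20, FDR 0.00372) or DMSO2 6 h library 1 (-0.18, FDR 0.00951). With Ace for 6 hours Pus1 was lower, with a median of 21.3 CPM and a log2 change of -0.25 (SE 0.065, FDR 0.00101). It was also called lower at 6 hours of 5FU, with a median of 24.3 CPM against 29.2 in DMSO1 (log2 -0.20, SE 0.066, FDR 0.00717), with overlapping groups. That call was lost with DESeq2 (FDR 0.0105), with the compared groups fitted alone (FDR 0.0408), and on leaving out 5FU 6 h library 2, 3, 4 or 6 or DMSO1 6 h library 1, 4, 5 or 6, where the FDR reached 0.0402. At 24 hours Pus1 differed from control by 0.061 under 5FU (95% interval -0.079 to 0.20) and by -0.080 under Ace (-0.21 to 0.048), and neither passed.

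Pus3 modifies the anticodon stem and loop of tRNAs. Pus3 fell under Dox: the 6-hour libraries lay at 4.56, 5.12 and 6.31 CPM (lowest, median, highest), below all DMSO2 6-hour libraries at 9.06, 9.52 and 10.1 CPM. The change was -0.82 on the log2 scale (SE 0.088, FDR 1.23e-12). In the Dox 24-hour group the libraries were more spread, at 4.84, 6.52 and 9.85 CPM against 8.66, 9.9 and 11.2 CPM in DMSO2, and the change was -0.52 (SE 0.086, FDR 1.5e-07) with overlapping groups. Ace moved Pus3 the other way at 6 hours, to 10.9, 12.8 and 14.1 CPM, above all 7 DMSO2 libraries (log2 0.41, SE 0.085, FDR 6.41e-05). With Ace for 24 hours the median was 10.6 CPM and the difference of 0.10 did not pass. Under 5FU the log2 differences were 0.13 at 6 hours and -0.12 at 24 hours, and neither passed. In GRCr8 the span of Pus3 overlaps those of Ddx25 and Hyls1. Their strands, and whether exons overlap, were not examined. The sources used here do not say whether reads were counted by strand. Reads of Pus3 and of an overlapping gene could therefore be shared. Pus1 likewise overlaps LOC120096017, which has no row.

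Pusl1 is a less studied relative of Pus1. Its clearest change was under 5FU at 24 hours, at 14.8, 15.3 and 16.7 CPM against 8.74, 10.1 and 11.8 CPM in DMSO1. The groups did not overlap, and the change was 1.51-fold (log2 0.59, SE 0.084, FDR 1.05e-08). At 6 hours of 5FU the median was 11.7 against 10.3 CPM, and the log2 difference of 0.20 did not pass (FDR 0.0399). After 6 hours of Dox Pusl1 was called higher, at 11.9 to 15.1 CPM against 9.37 to 11.5 CPM (log2 0.27, SE 0.078, FDR 0.00206). That call was lost when counts were scaled by library size alone, where the change was 0.11 (FDR 0.194) and the median of all genes shifted to -0.15, and on leaving out Dox 6 h library 6 (log2 0.22, FDR 0.0103). Under Ace the differences were -0.0071 at 6 hours (95% interval -0.17 to 0.16) and -0.0040 at 24 hours (-0.16 to 0.15). Pusl1 overlaps Ints11 in GRCr8, with the same limit on strand as for Pus3.

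The TruB family is represented by Trub1, which makes the pseudouridine of the T arm of tRNAs and also modifies mRNAs, and by Trub2, which acts in mitochondria. Trub2 fell most of all members: at 24 hours of Dox it stood at 14.3, 16.7 and 18.6 CPM, against 42.6, 43.4 and 47.6 CPM in DMSO2. The fall was 2.63-fold (log2 -1.40, SE 0.057, FDR 1.56e-32), and the Dox 24-hour libraries also lay below the libraries of all other groups, whose lowest value was 38.1 CPM. In the Dox 6-hour group the groups overlapped, at 38.1 to 51.2 against 46.9 to 53.6 CPM, with a small decrease of -0.16 (SE 0.053, FDR 0.00543). That decrease did not pass with DESeq2 (FDR 0.026), with the compared groups alone (FDR 0.0211), or without any 1 of DMSO2 6 h libraries 2 and 7 and Dox 6 h libraries 1, 2 and 3, where it ran down to -0.13 (FDR up to 0.029). Under 5FU Trub2 rose, at 51.7, 55.1 and 58.6 CPM at 6 hours against 38.9, 44.1 and 49.6 CPM in DMSO1 (log2 0.31, SE 0.057, FDR 4.7e-06). It was also higher at 24 hours of 5FU, at 57.1, 58.1 and 60.3 CPM against 41, 45.6 and 51.9 CPM (log2 0.35, SE 0.057, FDR 2.21e-07). No 5FU library overlapped its control at either time. Ace left Trub2 within 0.026 of control at 6 hours (95% interval -0.084 to 0.13) and -0.0020 at 24 hours (-0.11 to 0.10).

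Trub1 was lower at 6 hours of 5FU, at 10.8, 11 and 12.1 CPM against 13.2, 14.5 and 15.8 CPM in DMSO1, with no overlap (log2 -0.36, SE 0.093, FDR 7.09e-04). At 24 hours of 5FU the difference was 0.030 and did not pass. After 24 hours of Dox it was higher, at 10.9, 12.4 and 19.5 CPM against 7.54, 9.42 and 11.7 CPM in DMSO2, with overlapping groups (log2 0.50, SE 0.088, FDR 5.46e-07). The highest value belongs to Dox 24 h library 7, which stood apart from the other 6, and without it the change was 0.41 and still passed. Under Ace the differences of -0.14 and -0.16 did not pass, nor did that of -0.11 at 6 hours of Dox.

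Rpusd1 and Rpusd2 belong to the RluA family, whose targets in mammals are less studied. Rpusd2 had the widest spread of all members: its SD was 26.3% of the mean in the median group and 52.1% at most, against medians of 6.58% to 11% in the other members. With 5FU for 6 hours it stood at 10.7, 13.3 and 19.8 CPM against 3.96, 6.5 and 7.74 CPM in DMSO1, with no overlap (log2 1.22, SE 0.26, FDR 6.73e-05). In the 5FU 24-hour group it stood at 4.74, 9.81 and 10.5 CPM against 2.47, 5.47 and 6.96 CPM (log2 0.83, SE 0.28, FDR 0.00696), and 5FU 24 h library 6, the lowest, lay among the controls. This call was lost on leaving out any 1 of 5FU 24 h libraries 1 to 5 or of DMSO1 24 h libraries 4 and 5, with changes of 0.71 or more and an FDR up to 0.0243, and stood at 0.98 without 5FU 24 h library 6. With Dox for 24 hours Rpusd2 was higher, at 8.1, 8.68 and 15.9 CPM against 2.51, 3.41 and 4.96 CPM in DMSO2 (log2 1.57, SE 0.26, FDR 2.12e-07), and the groups did not overlap. At 6 hours of Dox 6 libraries lay at 8.11 to 9.85 CPM and library 3 at 1.47 CPM, against 3.12 to 6.97 CPM in DMSO2. The change of 0.63 did not pass (FDR 0.0248), whereas without Dox 6 h library 3 it was 0.81 and passed (FDR 0.00165). Under Ace, Rpusd2 differed by 0.30 at 6 hours (95% interval -0.23 to 0.84) and 0.11 at 24 hours (-0.45 to 0.66), where library 2 had 0.364 CPM and the other libraries at least 2.92.

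Rpusd1 was called higher under Ace at both times and was not called under 5FU or Dox. After 6 hours of Ace it lay at 22.6, 24 and 28 CPM, above all DMSO2 libraries at 17.9, 19 and 22.2 CPM (log2 0.31, SE 0.069, FDR 1.82e-04). At 24 hours of Ace it lay at 17.3, 18.6 and 19.8 CPM against 13.4, 15.2 and 17.7 CPM, a change of 0.30 (SE 0.069, FDR 2.7e-04) with groups that overlapped slightly. Under 5FU the differences were 0.18 (FDR 0.0255) at 6 hours and 0.13 at 24 hours. Under Dox they were -0.18 (FDR 0.0147) and -0.13. The 6-hour Dox difference passed without DMSO2 6 h library 4 (-0.20, FDR 0.00845) or Dox 6 h library 7 (-0.23, FDR 0.00218). The test of 5FU against Ace for Rpusd1 is given below and did not pass.

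Pus7 and Pus7l form the TruD family. Pus7 modifies tRNAs, small nuclear RNA and mRNAs, and its loss in humans impairs brain development and growth; Pus7l is its less studied relative. Pus7 rose under Ace, to 23.3, 24.7 and 27.3 CPM at 6 hours against 15.5, 18.1 and 20.1 CPM in DMSO2. All 6 Ace libraries lay above the control (log2 0.49, SE 0.072, FDR 9.36e-08). After 24 hours of Ace it stood at 12.8, 14.1 and 16.3 CPM against 10.3, 11.8 and 13.4 CPM, a change of 0.24 (SE 0.073, FDR 0.00461) that was lost without Ace 24 h library 3 or DMSO2 24 h library 2 or 5 (down to 0.21, FDR up to 0.0187). In the Dox 24-hour group it stood at 12.9, 15.2 and 17.8 CPM, a change of 0.33 (SE 0.073, FDR 4.58e-05) with overlapping groups. Under 5FU Pus7 differed by -0.080 at 6 hours (95% interval -0.23 to 0.070) and by 0.046 at 24 hours (-0.12 to 0.21).

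Pus7l moved under Dox in the other direction. The Dox 6-hour libraries lay at 2.95, 3.42 and 4.09 CPM, below all DMSO2 libraries at 6.29, 6.92 and 7.57 CPM, a fall of 1.99-fold (log2 -0.99, SE 0.095, FDR 1.95e-14). The Dox 24-hour libraries lay at 2.79, 3.5 and 4.21 CPM, below DMSO2 at 5.3, 6.01 and 6.61 CPM (log2 -0.80, SE 0.096, FDR 1.94e-11). Under Ace the difference of 0.21 at 6 hours (FDR 0.0635) and -0.16 at 24 hours did not pass, and under 5FU those of -0.14 and -0.044 did not. Pus7l overlaps Irak4 in GRCr8, with the same limit on strand as for Pus3.

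Pus10 forms a family of its own and can make the pseudouridine of the T arm of tRNAs. It was higher at 24 hours of Dox, at 34.3, 37.6 and 53.5 CPM against 17.3, 18.7 and 20.3 CPM in DMSO2, and no library of the group overlapped any library of another group. The change was 2.07-fold (log2 1.05, SE 0.071, FDR 2.76e-21), and without Dox 24 h library 7, the highest, it was 0.98. In the Dox 6-hour group it was within 0.019 of control (95% interval -0.13 to 0.17). With 5FU for 6 hours it was called lower, at 11.8, 15 and 16 CPM against 15.2, 17.3 and 19.1 CPM in DMSO1 (log2 -0.24, SE 0.080, FDR 0.00825). This call was lost with DESeq2 (FDR 0.0133), with filterByExpr (FDR 0.0108), with the compared groups alone (FDR 0.0287) and without 5FU 6 h library 1, 3 or 5 or DMSO1 6 h library 1, 2 or 3, the FDR reaching 0.042 and the change -0.19. With 5FU for 24 hours, and under Ace at both times, the differences lay between -0.12 and -0.030 and did not pass.

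Among members called in more than 1 drug comparison, the direction was not always kept. Pus1 was lower at 6 hours of Ace and higher at 24 hours of Dox. Pus3 was higher at 6 hours of Ace and lower in Dox at both times. Trub2 was higher in 5FU and lower in Dox at both times, but its 6-hour Dox call was lost under the alternatives named above. Trub1 was lower at 6 hours of 5FU and higher at 24 hours of Dox, and so was Pus10, whose 5FU call was lost under the alternatives named above. Members of the same family also went apart at 24 hours of Dox: Pus1 rose while Pus3 fell, Trub1 rose while Trub2 fell, and Pus7 rose while Pus7l fell. These are the values of single genes, and the difference between family members was not tested. Markers of other cell types fell in the same libraries at 24 hours of Dox: the summed level of the 8 fibroblast markers was 1917 to 4064 CPM against 15099 to 18894 CPM in DMSO2, that of the 8 endothelial markers 25.6 to 55.9 against 278 to 367 CPM, and that of the 10 macrophage markers 45.2 to 64 against 119 to 146 CPM. Smooth muscle markers summed to 307 to 1579 CPM against 433 to 607 CPM, and cardiomyocyte markers to 26987 to 35664 against 39120 to 48385 CPM. No marker in these lists was at 0 throughout a group. Their part in the member changes was not tested. The fibroblast sum was 5166 to 5837 CPM with 5FU for 24 hours, against 9972 to 19903 CPM in DMSO1, and 7250 to 9277 CPM with Ace for 24 hours, against the DMSO2 range above, and its part was not tested there either. Endothelial markers were also lower at 24 hours of 5FU (6 of 8) and of Ace (5 of 8), as were 4 of 10 and 6 of 10 macrophage markers, while 1 of 10 was higher under 5FU. Of 10 cardiomyocyte markers, 5 were lower and 2 higher at 24 hours of 5FU (median log2 -0.27). With Ace for 24 hours, 3 were lower and 2 higher. The cardiomyocyte sum was 33971 to 36867 CPM with 5FU, against 40470 to 43368 CPM in DMSO1, and 41112 to 52607 CPM with Ace. Of 4 smooth muscle markers, 2 were higher and 2 lower with 5FU, and 2 were lower with Ace. At 6 hours of Dox, where Pus3 and Pus7l fell, 8 of 8 endothelial markers (median log2 -1.47) and 6 of 8 fibroblast markers were lower, 4 of 4 smooth muscle markers were higher (median 1.62), and 6 of 10 cardiomyocyte markers were higher and 3 lower. With Ace for 6 hours, 6 of 8 fibroblast and 3 of 8 endothelial markers were lower, and with 5FU for 6 hours 2 of 8 and 3 of 8. The part of these markers was not tested.

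Time in culture was examined in the DMSO wells. Taking both DMSO groups together, 5 members were lower and 1 was higher at 24 than at 6 hours, where 31.9% of all genes were lower and 32.7% higher. The largest of these differences was in Pus7, at 10.3 to 13.4 CPM in DMSO2 at 24 hours against 15.5 to 20.1 CPM at 6 hours (log2 -0.76 over both controls, SE 0.053, FDR 4.52e-20). Pus1 was lower by -0.60 (SE 0.046, FDR 2.48e-18), Trub1 by -0.50 (SE 0.064, FDR 4.1e-10) and Rpusd1 by -0.35 (SE 0.051, FDR 1.36e-08). Pus10 was higher by 0.21 (SE 0.054, FDR 5.29e-04). Pus7l was called lower by -0.19 (SE 0.066, FDR 0.00854), a call lost with DESeq2 (FDR 0.0117) and in 15 of the 26 fits that left out 1 control library (FDR up to 0.021), namely DMSO1 24 h library 1 or 4, DMSO1 6 h library 1, 2, 3 or 6, DMSO2 24 h library 4, 5, 6 or 7 and DMSO2 6 h library 1, 2, 4, 5 or 7, with changes no smaller than -0.17. Pus3, Pusl1, Trub2 and Rpusd2 did not pass, with differences of -0.036, -0.054, -0.063 and -0.36. All 8 fibroblast markers (median log2 0.48) and 8 of 10 macrophage markers (0.76) were higher at 24 hours in the controls. Of 4 smooth muscle markers, 3 were lower and 1 higher (median -1.49), and of 10 cardiomyocyte markers 4 were lower and 2 higher (-0.035). Endothelial markers were higher in 4 and lower in 3 of 8, and the part of all these markers was not tested.

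**Figure D3:**
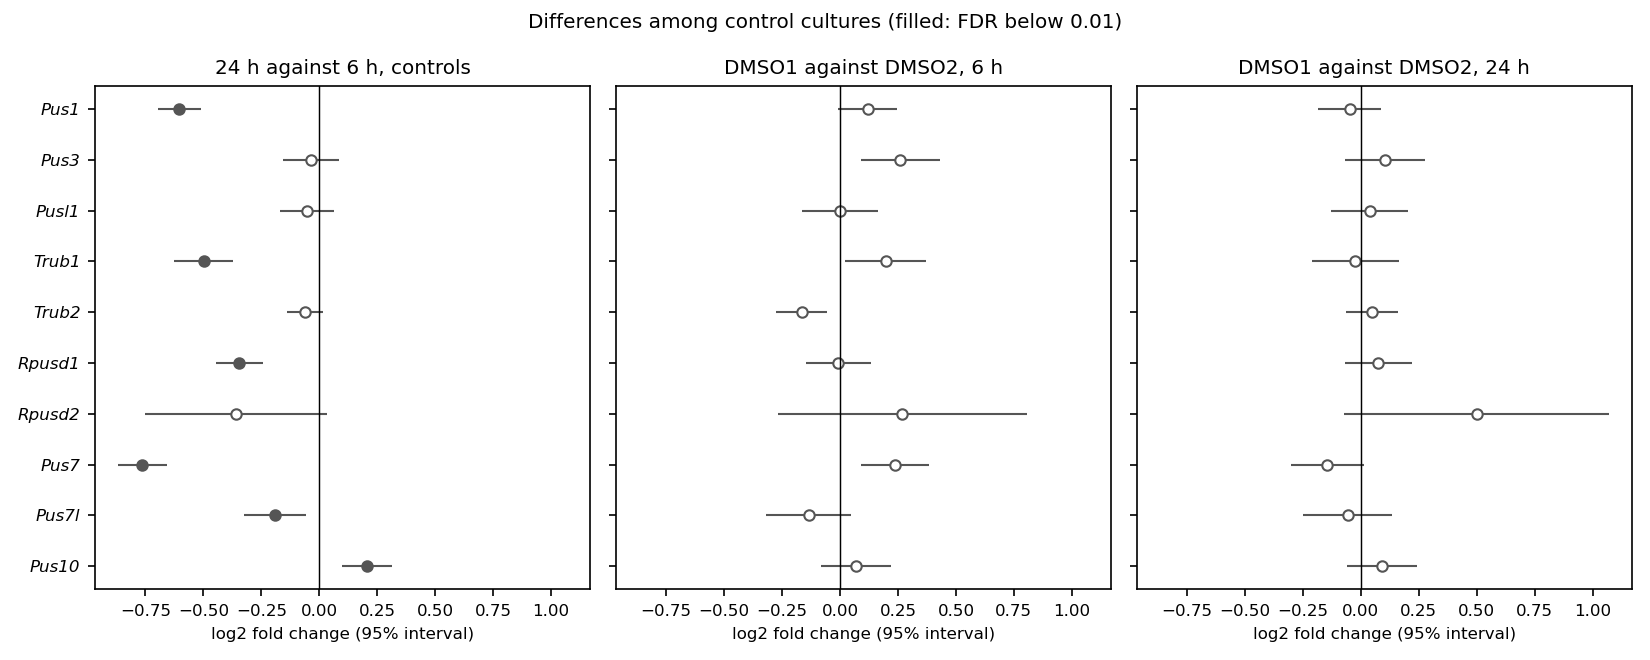
log2 fold change (x axis, with its 95% interval) of each pseudouridine synthase among control cultures, for 24 against 6 hours over both controls and for DMSO1 against DMSO2 at each time. Filled symbols passed an FDR below 0.01: Pus7 at -0.76 and Pus10 at 0.21 mark the ends of the time comparison, and no member passed between the DMSO shares.

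Between DMSO1 and DMSO2, 0 of 10 members passed at 6 hours with edgeR (9.87% of all genes higher, 6.6% lower), 4 had an unadjusted p below 0.05, and 1 passed with DESeq2. That gene was Pus7, 0.24 higher in DMSO1 with edgeR (FDR 0.0104, and 0.00913 with DESeq2). It passed with edgeR without DMSO1 6 h library 3 (0.30, FDR 6.87e-04) or DMSO2 6 h library 2 (0.27, FDR 0.00598), as did Trub2 (-0.17, FDR 0.0187) without DMSO1 6 h library 4 (-0.20, FDR 0.00553). The others with an unadjusted p below 0.05 were Pus3 (0.26, FDR 0.0171) and Trub1 (0.20). For Pus3 the DMSO1 and DMSO2 libraries at 6 hours did not overlap. At 24 hours 0 members passed with edgeR or with DESeq2 (0.137% of all genes higher and 0.295% lower) and 0 had an unadjusted p below 0.05.

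The drug effect at 24 hours was set against that at 6 hours by a contrast of both. For Dox, 5 of 10 members differed, where 64.8% of all genes did. The Dox effect was larger at 24 hours by 1.28 for Pus1 (SE 0.088, FDR 2.61e-20), 1.03 for Pus10 (SE 0.10, FDR 7.89e-14), 0.62 for Trub1 (FDR 1.19e-05) and 0.45 for Pus7 (FDR 9.84e-05). It was lower by -1.24 for Trub2 (SE 0.077, FDR 3.56e-22). For Pus7l, low at both times, the difference was 0.19 (95% interval -0.084 to 0.46), and for Pus3 it was 0.30 (FDR 0.0262), which passed without Dox 24 h library 7 (0.39, FDR 0.0018) or 2 (0.35, FDR 0.00867). Rpusd2 (0.94, FDR 0.0194) passed without DMSO2 6 h library 6 (1.05, FDR 0.00993) and Pusl1 (-0.24, FDR 0.0544) without Dox 24 h library 6 (-0.30, FDR 0.00821). For 5FU, 1 member differed (39.5% of all genes), Pusl1 by 0.39 (SE 0.12, FDR 0.00445), lost with the compared groups alone (FDR 0.0117) and without 5FU 6 h library 5 or 6 or DMSO1 6 h library 4 (FDR up to 0.0113). Pus1 (0.26, FDR 0.0186) and Trub1 (0.39, FDR 0.0126) passed without DMSO1 6 h library 3 or 5FU 24 h library 5, as did Pus1 without 5FU 6 h library 1 and Trub1 without 5FU 24 h library 4. For Ace, 0 members differed with edgeR or with DESeq2 (11.6% of all genes), and 3 had an unadjusted p below 0.05.

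The 5FU effect was set against the effects of the other drugs, each relative to its own DMSO control. Against Ace at 6 hours 2 members differed (30.9% of all genes): Pus7 by -0.57 (SE 0.10, FDR 9.67e-06) and Trub2 by 0.28 (SE 0.079, FDR 0.00277), the latter lost with library size only (0.24, FDR 0.0237) and without DMSO1 6 h library 6 (FDR 0.0106). Against Ace at 24 hours 2 members differed (37.3%): Pusl1 by 0.60 (SE 0.12, FDR 1.9e-05) and Trub2 by 0.35 (SE 0.078, FDR 1.26e-04). For Rpusd1 the difference of the effects was -0.13 at 6 hours (95% interval -0.33 to 0.073) and -0.16 at 24 hours (-0.37 to 0.041). Against Dox at 6 hours 4 members differed (45.9%), all with the higher effect in 5FU: Pus3 by 0.94 (FDR 1.44e-09), Pus7l by 0.85 (FDR 1.99e-07), Trub2 by 0.47 (FDR 4.66e-07) and Rpusd1 by 0.37 (FDR 0.00131). Against Dox at 24 hours 7 members differed (71.1%). The 5FU effect was higher for Trub2 by 1.75 (SE 0.080, FDR 4.01e-29), Pus7l by 0.76 (FDR 1.72e-06), Pusl1 by 0.56 (FDR 1.78e-05) and Pus3 by 0.39 (FDR 0.00348). The Pus3 difference was lost with library size only (0.34, FDR 0.0114), with the compared groups alone (0.42, FDR 0.0129) and without Dox 24 h library 7 (0.31, FDR 0.0142). The 5FU effect was lower for Pus10 by -1.08 (SE 0.11, FDR 3.32e-14), Pus1 by -1.06 (SE 0.094, FDR 4.55e-16) and Trub1 by -0.47 (FDR 9.98e-04). Pus7 (-0.28, FDR 0.0169) passed without 5FU 24 h library 2, DMSO1 24 h library 1 or Dox 24 h library 4 (FDR 0.00348 to 0.00752), and Rpusd1 (0.26, FDR 0.0186) without Dox 24 h library 5 or 6 (FDR 0.00689 and 0.00896). Rpusd2, called in both drugs at 24 hours, differed by -0.73 (95% interval -1.50 to 0.029) and did not pass.

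The order of the 10 groups differed between members. Dox at 24 hours had the highest mean for Pus1 (39.3 CPM ± 3.22, SD, n = 7) and Pus10 (38.9 CPM ± 6.63), and the lowest for Trub2 (16.8 CPM ± 1.39), Rpusd1 (13.8 CPM ± 2.12) and Pus7l (3.39 CPM ± 0.504). For Pus1, Pus10 and Trub2 this group did not overlap its neighbour in the order. For Rpusd1 it overlapped the next group, and for Pus7l it overlapped Dox at 6 hours and the lowest Ace 24-hour library (4.16 CPM). 5FU at 24 hours had the highest mean for Pusl1 (15.6 CPM ± 0.855, n = 6) and Trub2 (58.4 CPM ± 1.22), and 5FU at 6 hours for Rpusd2 (14.1 CPM ± 3.31). Ace at 6 hours had the highest mean for Pus3, Rpusd1, Pus7 and Pus7l. Between the lowest and the highest group mean, levels differed 1.55-fold for Pusl1 at the least and 3.91-fold for Rpusd2 at the most.

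Over the 65 libraries, which share their groups, the lowest Pearson correlation of log2 CPM among members was that of Trub2 and Pus10 (-0.88) and the highest that of Pus1 and Trub1 (0.76). With group means taken out, these became -0.23 and 0.26. The strongest correlations within groups were those of Pus3 with Pusl1 (0.56), Trub2 with Rpusd1 (0.46) and Trub1 with Rpusd1 (-0.41). They are descriptions over libraries of unequal depth, with no test. The gene with the most similar pattern over the 65 libraries was Dctn6 for Trub2 (r = 0.97), Rfx5 for Pus10 (0.94), Scx for Pus1 (0.91), C13h1orf74 for Pus3 (0.91), Srsf2 for Pus7 (0.90), Ccdc8 for Pus7l (0.88), Agfg2 for Rpusd1 (0.85), Nol10 for Trub1 (0.83), Bud31 for Pusl1 (0.80) and Gpatch3 for Rpusd2 (0.73).

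All 3 other synthases of the table passed under Dox at both times, where 64.2% of all genes passed at 6 hours and 81.4% at 24 hours. Rpusd3 and Rpusd4 act in mitochondria, and Dkc1 is the catalytic subunit of the H/ACA particle. After 24 hours of Dox, Rpusd3 fell to 6.74, 7.72 and 10 CPM (lowest, median, highest) against 17.5, 20.2 and 20.7 CPM in DMSO2 (log2 -1.30, SE 0.077, FDR 3.88e-24). Dkc1 fell to 51.9, 63.9 and 73 CPM against 105, 114 and 115 CPM (log2 -0.82, SE 0.060, FDR 5.48e-20). Neither overlapped its control. The 6-hour falls under Dox were smaller, -0.24 for Rpusd3 (FDR 0.00199) and -0.28 for Dkc1 (FDR 3.05e-05). Rpusd4 was higher at 6 hours of Dox (log2 0.44, FDR 1.84e-07) and at 24 hours (0.21, FDR 0.00663) and lower at 24 hours of 5FU (-0.36, FDR 6.81e-05). Dkc1 was higher at 24 hours of 5FU by 0.23 (FDR 0.001). In the Dox 24-hour group Trub2 and Rpusd3, both of which act on mitochondrial RNA, were lower, and Rpusd4 was higher. Pus1, which modifies tRNAs of mitochondria as well as of the cytoplasm, was also higher (log2 1.12).

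Beside Dkc1, 5 proteins that form or assemble the H/ACA particle were examined. At 24 hours of Dox 4 of these 5 were higher and 0 lower, against 40.4% and 41% of all genes. Dkc1 itself, counted above with the other synthases, fell at that time. Nop10, a core protein, rose in every drug comparison except Ace at 6 hours (0.13), by 0.40 and 0.56 under 5FU, 0.49 at 24 hours of Ace and 0.59 and 0.86 under Dox. Nhp2, which binds beside Nop10, rose by 1.07 at 6 hours of Dox and 1.60 at 24 hours, from low levels of 0.932 to 3.02 CPM in DMSO2 at 24 hours to 4.93 to 10.7 CPM. Shq1, which assists Dkc1 before assembly, rose by 1.45 at 24 hours of Dox (SE 0.083, FDR 7.61e-25) and 0.48 at 24 hours of Ace, and fell by 0.32 at 24 hours of 5FU. At 6 hours it was higher by 0.26 under Dox (FDR 0.00451) and 0.30 under Ace (FDR 0.00344), with overlapping groups. Gar1 was lower at 6 hours of all drugs, by -0.40 (5FU), -0.30 (Ace) and -0.54 (Dox), and at 24 hours of Ace by -0.28. Naf1, the assembly factor that Gar1 replaces, was lower at 6 hours of 5FU (-0.53) and higher at 6 hours of Ace (0.34) and 24 hours of Dox (0.54). All 5 were lower at 24 than at 6 hours in the controls (31.9% of all genes).

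**Figure D4:**
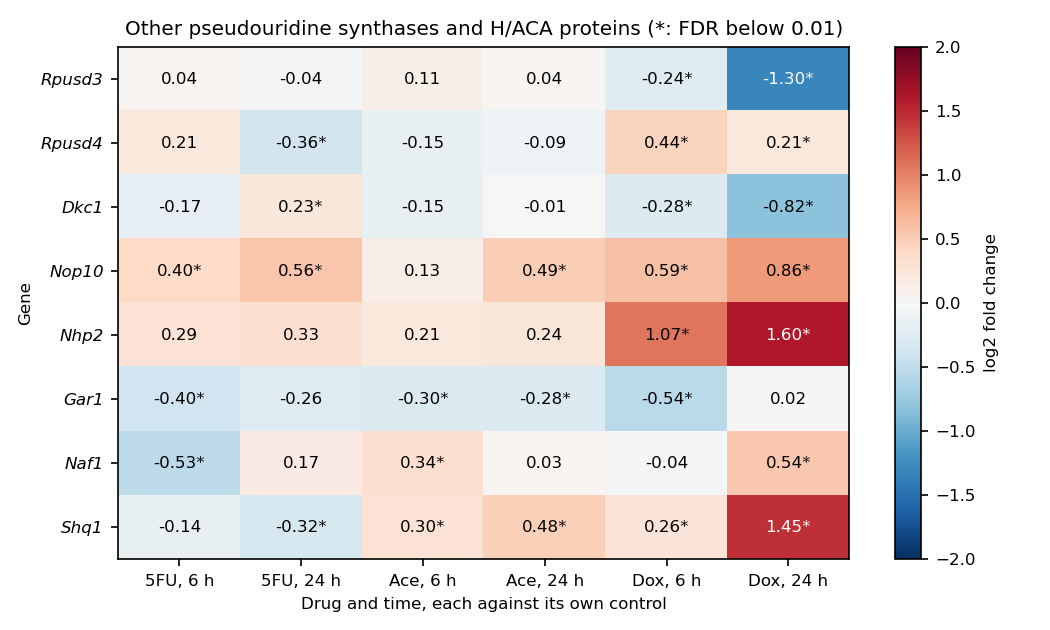
log2 fold change (colour and printed value) of the 3 other pseudouridine synthases and the 5 H/ACA proteins (rows) in each drug comparison (columns). An asterisk marks an FDR below 0.01; at 24 hours of Dox, Rpusd3 (-1.30) and Dkc1 (-0.82) fell while Nhp2 (1.60) and Shq1 (1.45) rose.

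Other enzymes that modify uridines of tRNA were counted as a group of 21 genes with a row, of 24 listed. At 24 hours 11 rose and 4 fell under 5FU, where 28% of all genes rose and 27.8% fell, and the median log2 fold change was 0.19 (-0.0094 over all genes). Under Ace 1 rose and 3 fell, against 18.2% and 19.1% of all genes, with a median of -0.039 (-0.00082). Under Dox 4 rose and 12 fell, against 40.4% and 41%, with a median of -0.36 (0.0028). At 6 hours 6 rose and 5 fell under 5FU (23.4% and 24.5% of all genes), 0 rose and 3 fell under Ace (16.5% and 15.2%), and 4 rose and 11 fell under Dox (31.5% and 32.7%), with medians of -0.059, -0.078 and -0.17 (-0.0016, 0.0023 and 0.0030 over all genes). With 5FU for 24 hours the largest increases were in Trmt44 (0.61) and Urm1 (0.52) and Dus4l was lower (-0.76). Trmt44 methylates a tRNA uridine, Urm1 carries sulphur for the thiolation of tRNA uridines, and Dus4l is a dihydrouridine synthase. At 24 hours of Ace, Trmu was higher (0.32) and Elp6 (-0.25) and Ctu1 (-0.24) were lower. After 24 hours of Dox, Mocs3, which activates Urm1, was higher by 2.57 (SE 0.070, FDR 7.93e-42) and Trmt44 by 1.42, while Elp3, a subunit of the Elongator complex, was lower (-1.41).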

How the data were processed

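PolyA RNA of primary neonatal rat cardiomyocytes was sequenced in 65 libraries of 10 groups. The values are estimated counts per gene as deposited by the authors, who assigned reads to the rat Ensembl transcriptome (v96) with kallisto 0.46.0 at default settings, used tximport to sum transcripts to Entrez genes, and left out genes of low count. Whether the counts were scaled by transcript length or counted by strand is not given in the sources used here. The values are whole numbers and were not normalized. Column names carry the group but no replicate number, so libraries are numbered within a group by column order, as names only.

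Symbols came from RefSeq GRCr8 and matched 14009 of 14554 identifiers. The members and gene lists were chosen with earlier results of these data known. A filter for 10 or more counts in 1 library removed 0 genes. Counts were scaled by TMM (factors 0.859 to 1.07) and fitted in R 4.3.3 with edgeR 4.0.16 (glmQLFit, glmQLFTest) in 1 model of 10 group means. Each drug was set against the DMSO group of its own DMSO share, and further contrasts tested times, controls and differences between effects. The FDR is the Benjamini-Hochberg value over all 14554 genes, with calls below 0.01. The code was tested on simulated data. At 14332827 to 25738297 counts per library, 11908 genes had 10 or more counts in every library. Library-level CPM used a TMM-scaled library size, and fold changes come from the model.

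The genes named are all members, the other synthases, the H/ACA proteins, for the tRNA uridine list up to 2 called genes with the largest increase and decrease per drug at 24 hours, and for each member the gene with the highest Pearson correlation of log2 CPM (prior count 2). Alternatives were DESeq2 (1.42.0) size factors and Wald test, scaling by library size, filterByExpr, no filter, an FDR of 0.1, fits of the compared groups alone, and leaving out each library. The authors' own differential expression results were not used here. Protein sequences were not used here. Some values that this naming rule covers are not reported here.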

Additional observations from a re-analysis of the deposited data

Results flagged for a closer look

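In the 100 member-group combinations, 10 held a library whose gap to its nearest neighbour was a large share of the group's range by Dixon's criterion; chance flags about 1 in 20. Rpusd2 accounts for 3: 5FU 24 h library 6 was low at 4.74 CPM (nearest 9.47), Dox 6 h library 3 was low at 1.47 CPM (nearest 8.11) and Ace 6 h library 1 was high at 7.33 CPM (nearest 6.31). In Dox 24 h library 7, both Trub1 (19.5 CPM, nearest 14.2) and Pus10 (53.5 CPM, nearest 38.2) were high, and both calls at 24 hours of Dox were kept without it. Other low libraries were DMSO1 6 h library 3 for Pus1 (23.3 CPM, nearest 27.6), DMSO1 24 h library 1 for Pus7 (8.69 CPM, nearest 11) and 5FU 6 h library 5 for Pus10 (11.8 CPM, nearest 14.7). Other high libraries were Dox 6 h library 6 for Pusl1 (15.1 CPM, nearest 12.9) and 5FU 6 h library 3 for Trub1 (12.1 CPM, nearest 11.3).

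Of the 70 tests of a difference between effects of the members, 21 passed an FDR below 0.01 with edgeR. For the Dox effect at 24 hours minus that at 6 hours, the values were 1.28 (Pus1), 1.03 (Pus10), 0.62 (Trub1), 0.45 (Pus7) and -1.24 (Trub2) on the log2 scale. For 5FU the same difference was 0.39 (Pusl1). The 5FU effect minus the Ace effect was 0.28 for Trub2 and -0.57 for Pus7 at 6 hours, and 0.35 for Trub2 and 0.60 for Pusl1 at 24 hours. The 5FU effect minus the Dox effect at 6 hours was 0.94 (Pus3), 0.47 (Trub2), 0.37 (Rpusd1) and 0.85 (Pus7l). At 24 hours it was -1.06 (Pus1), 0.39 (Pus3), 0.56 (Pusl1), -0.47 (Trub1), 1.75 (Trub2), 0.76 (Pus7l) and -1.08 (Pus10). Trub2 differed in 5 of these contrasts, and its 5FU and Dox effects had opposite signs at both times. The 6-hour control differences of Pus3, Pus7 and Trub2 given above enter their 6-hour values here. Causes of the differences between effects were not tested.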

How the results depend on the processing

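No paired analysis was possible because the columns of the table carry no replicate numbers. The 53 calls of a member in a comparison, 26 of them in the drug comparisons, changed sign under none of the 7 alternatives. All 53 were kept with no filter and at an FDR below 0.1, but these settings could not lose or reverse a call. The main filter removed 0 genes, and the looser threshold was applied to the same fit. With filterByExpr 52 were kept, with library size only 50, and with DESeq2 size factors 49. The DESeq2 Wald test kept 49 and the compared groups fitted alone kept 48. The number of members called at 6 hours of 5FU went from 5 to 3 with DESeq2 size factors, with the DESeq2 Wald test and with the compared groups alone. At 6 hours of Dox it went from 4 to 7 with library size only and at an FDR below 0.1. Between DMSO1 and DMSO2 at 6 hours it went from 0 to 1 with library size only, the compared groups alone and the DESeq2 Wald test, and to 4 at an FDR below 0.1. For the 24-hour minus the 6-hour effect it went from 1 to 3 (library size only) and 4 (FDR below 0.1) for 5FU, from 0 to 3 (FDR below 0.1) for Ace, and from 5 to 8 under both for Dox. For the 5FU effect minus the Ace effect at 6 hours it went from 2 to 1 (library size only) and 5 (FDR below 0.1). Scaling by library size alone moved the median of all genes at 6 hours of Dox from 0.0030 to -0.15 and that of the Dox difference between times from 0.065 to 0.27. The share of calls that were higher over all genes then went from 48.9% to 36.8% at 6 hours of 5FU, from 48.8% to 61.4% at 24 hours of Ace, from 49.1% to 33.8% at 6 hours of Dox, from 59.9% to 29.6% and from 31.7% to 80.7% between the controls at 6 and 24 hours, and from 47.9% to 77.1% and from 52.5% to 64.8% for the time differences of Ace and Dox. Apart from these constructions, the cause was not tested.

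Leaving out 1 library at a time gave 3 to 4 members at 6 hours of 5FU, 2 to 3 at 24 hours of 5FU, 4 at 6 hours of Ace, 1 to 2 at 24 hours of Ace, 3 to 5 at 6 hours of Dox and 8 at 24 hours of Dox. It gave 0 to 1 and 0 between the controls at 6 and 24 hours, 5 to 6 for time in the controls, 0 to 3, 0 and 5 to 6 for the time differences of 5FU, Ace and Dox, 1 to 2 and 2 for 5FU minus Ace at 6 and 24 hours, and 4 and 6 to 8 for 5FU minus Dox. No called value changed sign. The lowest library of Rpusd2 held 7 counts and that of Pus7l 50. In DMSO1 at 6 hours, Rpusd2 had 83 to 159 counts and an SD of 25.7% of the mean. Pus7l had 113 to 145 counts there and an SD of 9.59%. The cause of the wider spread of Rpusd2 was not tested.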
